A study of Mus musculus with 6 samples.

Results

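The narrowest intervals of a liver ATAC-seq peak list that lie deep inside protein-coding genes are described here. ATAC-seq marks accessible chromatin, because a transposase inserts sequencing adapters where DNA is open. A member, called a deep narrow interval below, had the smallest width in the list (201 bp), its centre inside a protein-coding gene span, and over 10 kb between its centre and every protein-coding gene end. This rule found 16872 intervals among 55903 of that width and 120905 in all, or 14.0% of the list. The livers were those of wild-type males fed a high-fat diet, with 3 libraries from C57BL/6J and 3 from 129S1/SvImJ, both inbred strains. All 6 libraries carry the same genotype, diet and sex, with no untreated or chow-fed group, and also an antibody entry for Esrrg. The deposited list pooled both strains and gave positions alone, so neither a difference between strains nor the strength of an interval was measured, and the depth behind it is unknown. The labels do not say whether replicates were separate animals.

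The intervals were chosen by their width, their position in a gene and their distance from its ends, and the host ranking by their density, so these values are given as description only. The next width, 202 bp, held 2581 intervals, of which 745 were deep. The nearest interval inside the distance limit had its centre 10001 bp from an end and the nearest one outside it 9999 bp, and 432 intervals lay within 1 kb inside the limit against 474 within 1 kb outside it. Of the members, 16808 had a single host gene and 64 had 2 overlapping hosts. No statistical test was run on these positions, because intervals and genes are not replicates, and each 95% interval given below covers counting error only.

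Open chromatin far inside genes commonly marks enhancers, which are short stretches bound by transcription factors that act on a promoter at a distance. It can also mark alternative promoters, from which shorter transcripts start, and sites that fold chromatin into loops. In liver, hepatocyte factors such as HNF4A, FOXA and C/EBP proteins are known to bind many such sites, and long introns give them room. Long genes of neuronal adhesion and synapse proteins have some of the largest introns in mammals and are mostly silent in hepatocytes.

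The hepatocyte genes looked at were Alb, Apob, Ttr, Cps1, Ahsg, Hnf4a, Serpina1a, Cyp2e1, Apoa1 and Trf. Each of these 10 had an interval of any width within 1 kb of an end. The list held 15771 intervals that close to a protein-coding gene end. The share of all genes with such an interval was not computed, so the count does not identify the tissue. Most of the 10 genes are short, and only Cps1, with 4, and Hnf4a, with 2, held deep narrow intervals. Apob, with 19.2 kb of sequence over 10 kb from every gene end, and Trf, with 1.41 kb, held none. The others had no such sequence.

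A small number of deep narrow intervals fell on a start site listed in RefSeq (GRCm38.p6, the mm10 build), and their sequences can be shown. RefSeq windows of 300 bases, from 250 before to 50 after a start, were touched by 148 of the 16267 members on chromosomes that have windows in the table (0.910%), against 2.58% of wider deep intervals. They touched 149 windows of 138 genes, and 97 of those windows belonged to the protein-coding host gene itself, at a start inside its span. Some genes on these chromosomes may lack a window, so the count of touched starts may be low. The stretches below are the bases before the start site that lie inside the interval, written 5′ to 3′ on the strand of the gene. They are shown because they are the places where a deep narrow interval sits at a mapped start. Capitals mark a match to a motif named further below, and all were chosen after the values were seen except Wipf1 and the RNA inside Dixdc1, which lie in the hosts of highest density.
Upp2, chr2:58754934-58755081, plus strand: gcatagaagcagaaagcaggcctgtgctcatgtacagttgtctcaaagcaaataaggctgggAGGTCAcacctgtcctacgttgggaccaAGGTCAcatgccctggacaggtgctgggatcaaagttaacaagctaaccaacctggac
Acsl1, chr8:46490827-46490965, plus strand: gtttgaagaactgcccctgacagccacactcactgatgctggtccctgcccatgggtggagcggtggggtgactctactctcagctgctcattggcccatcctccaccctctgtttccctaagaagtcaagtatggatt
Mlxipl, chr5:135106813-135106890, plus strand: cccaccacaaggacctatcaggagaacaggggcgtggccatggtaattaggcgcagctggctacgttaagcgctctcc
Adgrf5, chr17:43389301-43389465, plus strand: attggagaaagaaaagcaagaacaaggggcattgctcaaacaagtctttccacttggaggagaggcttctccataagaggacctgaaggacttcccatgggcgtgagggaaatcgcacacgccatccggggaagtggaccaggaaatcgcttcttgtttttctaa
Sgcd, chr11:47379326-47379504, minus strand: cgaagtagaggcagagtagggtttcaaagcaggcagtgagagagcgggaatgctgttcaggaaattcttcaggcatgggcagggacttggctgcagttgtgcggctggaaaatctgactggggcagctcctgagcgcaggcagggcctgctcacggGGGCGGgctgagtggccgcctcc
Mgat4c, chr10:102158832-102159032, plus strand: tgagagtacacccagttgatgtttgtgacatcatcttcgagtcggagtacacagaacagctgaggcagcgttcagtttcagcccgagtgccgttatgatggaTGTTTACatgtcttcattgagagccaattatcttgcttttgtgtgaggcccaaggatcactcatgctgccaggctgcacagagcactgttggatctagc
Wipf1, chr2:73453890-73453983, minus strand: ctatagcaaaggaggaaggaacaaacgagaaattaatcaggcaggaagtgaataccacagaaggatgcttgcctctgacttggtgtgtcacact
Gm51674 inside Dixdc1, chr9:50698827-50699027, plus strand: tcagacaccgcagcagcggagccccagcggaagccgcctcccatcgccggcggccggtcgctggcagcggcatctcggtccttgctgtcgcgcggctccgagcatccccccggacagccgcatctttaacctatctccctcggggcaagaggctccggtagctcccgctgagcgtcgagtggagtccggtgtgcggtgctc

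These start sites span liver metabolism and genes of other tissues. Upp2, a liver uridine phosphorylase, had an interval centred at -203 bp from a start, 40.9 kb from the nearest gene end, and the stretch holds AGGTCA, the core that many nuclear receptors recognise, at 2 places. Acsl1, which activates long-chain fatty acids, had one centred at -39 bp from a start, and Mlxipl, which encodes the glucose-responsive factor ChREBP, one centred at 22 bp past a start. Adgrf5 is an adhesion receptor gene with an interval centred at -65 bp from a start. Sgcd, a sarcoglycan gene of muscle, had its interval 408 kb from any gene end, the sequence there holding the GC box GGGCGG. In Mgat4c the interval shown adjoins another of the same width that begins at the next base, and TGTTTAC, a FOX factor core, lies inside it. The long non-coding RNA gene Gm51674 begins inside Dixdc1 in a window with a GC content of 72.3% and 33 CpG pairs, whereas the Wipf1 window had 41.7% and 1 CpG pair.

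Start windows touched by deep narrow intervals had a median GC content of 52.0% (quartiles 47.0 and 58.3) with a median of 7 CpG pairs. All start windows had 52.7% (45.7 and 61.7) and also 7 CpG pairs. Windows touched by wider deep intervals had 57.3% and 12 CpG pairs, and deep windows touched by neither had 48.0% and 4. Motifs were searched on both strands over the whole 300 bases. The GC box GGGCGG was in 42 of the 149 windows (28.2%), against 35.7% of all 32851 windows of that length, 50.1% of those touched by wider deep intervals and 13.0% of deep windows touched by neither. AGGTCA was in 13.4%, against 16.3% of all windows and 19.4% of deep windows touched by neither, and the FOX core TGTTTAC in 5.37% against 3.65% and 4.78%. The clock E-box CACGTG was in 4 windows (2.68%) against 7.15% and 4.58%. The ETS motif CCGGAAG was in 6.04%, against 8.86% of all windows but 2.51% of deep windows touched by neither. The AP-1 motif TGACTCA was in 4.03% against 5.20% and 6.54%. A match is a run of letters, and these shares move with base composition.

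MicroRNA hairpins were touched rarely. Of 253 hairpins centred deep inside genes, 2 overlapped a deep narrow interval and 6 a wider one. Mir7687 lies in Gse1, 42.5 kb from the nearest gene end, where 48 bases of its hairpin fell in the interval chr8:120538707-120538907. Mir6541 lies in Wdfy2, and its whole hairpin of 110 bases fell in the interval chr14:62865488-62865688. Their mature sequences follow with the seed, bases 2 to 8, in capitals, and no seed was shared.
mmu-miR-7687-5p: aGGCGGGGaaccugaggcgcaggcu
mmu-miR-7687-3p: cCACUCAGucgccccgccaca
mmu-miR-6541: cACAGGCAaggacuucucaag

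Deep narrow intervals were spread through gene interiors at 21.2 to 23.9 per Mb at every depth, whereas the density of wider ones was lower farther in. Gene interior, the sequence inside protein-coding spans and over 10 kb from every protein-coding end, came to 736 Mb and held 22.9 deep narrow intervals per Mb (95% Poisson interval 22.6 to 23.3) and 26.7 wider ones. From 10 to 20 kb from an end there were 23.4 narrow intervals per Mb (22.7 to 24.2), from 20 to 50 kb 23.9, from 50 to 100 kb 23.3, from 100 to 200 kb 21.22 and beyond 200 kb 21.3 (20.4 to 22.2). Wider intervals went from 32.7 per Mb (31.8 to 33.7) to 30.52, 27.01, 21.01 and 14.8 (14.0 to 15.6) over the same steps. The share of narrowest intervals among deep ones was 41.7% at 10 to 20 kb and 59.0% beyond 200 kb.

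**Figure D1:**
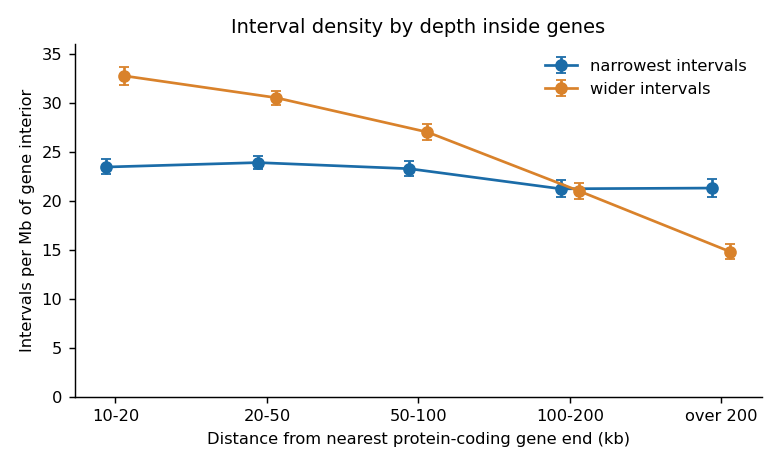
Intervals per Mb of gene interior (y axis) against distance from the nearest protein-coding gene end in kb (x axis), with 95% Poisson intervals as bars. Narrowest intervals stay between 21.2 and 23.9 per Mb, and wider intervals go from 32.7 to 14.8.

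Beyond 100 kb the density of deep narrow intervals was 0.907 times that at 10 to 20 kb (95% interval 0.868 to 0.948), and the ratio was 0.555 (0.532 to 0.579) for wider intervals. On 19 of 20 chromosomes the ratio was higher for the narrow intervals. The range over chromosomes was 0.301 to 1.19 for narrow and 0.305 to 0.741 for wider intervals, and the narrow ratio was below 1 on 16 of 20. Chromosomes 19 and X stood lowest, at 0.301 and 0.382, and there the wider ratios were 0.305 and 0.375.

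Gene length and depth inside a gene go together, so the same profile was read within long hosts. In the 208 genes with at least 500 kb of interior, narrow intervals numbered 22.1 per Mb (18.1 to 26.6) at 10 to 20 kb and 21.4 (20.5 to 22.4) beyond 200 kb, while wider ones numbered 23.1 (19.02 to 27.7) and 14.7 (13.9 to 15.5). In the 2645 genes with 50 to 200 kb of interior, narrow intervals numbered 24.5, 24.9 and 24.3 per Mb at 10 to 20, 20 to 50 and 50 to 100 kb, beside 34.3, 32.5 and 31.3 for wider ones. At 20 to 50 kb the long genes had 20.2 narrow intervals per Mb (17.9 to 22.6), below the 24.9 (24.1 to 25.8) of the shorter ones, while at 10 to 20 kb the 95% Poisson intervals of the narrow densities overlapped. The member farthest from any end was chr6:46180991-46181191 in Cntnap2, a neuronal adhesion gene, at 1120 kb.

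Along the direction of transcription, deep narrow intervals were slightly denser towards the 5′ end. Strand came from RefSeq start windows for 2719 of the 3498 genes with at least 50 kb of interior, and each interior was cut into 5 equal lengths. The 5 lengths from 5′ to 3′ held 24.8 (23.8 to 25.8), 23.8, 22.1, 21.6 and 21.1 (20.2 to 22.0) narrow intervals per Mb. The 5′ length exceeded the 3′ length by a ratio of 1.18, in the same direction on 17 of the 19 chromosomes with strand and members. For wider intervals the series was 27.1, 25.6, 24.9, 25.0 and 25.6, a ratio of 1.06, with the 5′ length higher on 9 of the same 19 chromosomes.

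**Figure D2:**
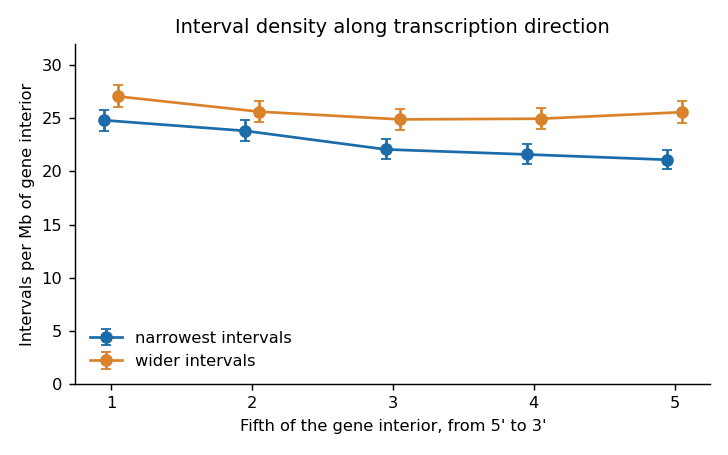
Intervals per Mb of gene interior (y axis) in 5 equal lengths of the interior from 5′ to 3′ (x axis) over 2719 genes, with 95% Poisson intervals as bars. Narrowest intervals go from 24.8 to 21.1 per Mb, and wider intervals from 27.1 to 25.6 with the lowest value in the middle.

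Chromosomes differed in density. It ran from 15.8 per Mb of interior on chromosome 11 to 27.8 on chromosome 10 among autosomes other than 19, which had 13.6 (12.01 to 15.4). The X chromosome had 10.1 (9.01 to 11.2). Chromosome Y had none in 0.716 Mb. The share of narrowest intervals among deep ones was 46.2% (45.7 to 46.7) over all chromosomes, lowest on X (38.4%) among chromosomes with at least 100 deep intervals and highest on chromosome 19 (55.6%). By location the share was 26.2% within 1 kb of a protein-coding gene end, 40.8% from 1 to 10 kb and 56.2% (55.8 to 56.7) outside genes and over 10 kb from ends. In the whole list 55903 of 120905 intervals had the narrowest width. Nearly equal shares of narrowest and wider intervals lay deep inside genes, at 30.2% and 30.3%.

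Neighbouring intervals were close for a minority. The nearest interval of any width was a median of 5647 bp away, measured between centres (quartiles 1994 and 11731), beside 5402 bp for wider deep intervals. Another interval lay within 500 bp of 1035 members (6.13%, exact 95% interval 5.78 to 6.51), against 1.46% of wider deep intervals, and the narrow share was higher on 20 of 20 chromosomes. Of those 1035 neighbours, 84.0% had the narrowest width too, while over all members the nearest neighbour was of that width for 51.6%. Touching pairs were few, with 12 members next to another without a gap. Wider deep intervals had a median width of 219 bp and reached 401 bp, and the bearing of width on spacing was not tested. An end of a gene that is not protein-coding lay within 1 kb of 2.44% of members, and of 3.23% of wider deep intervals.

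Host genes were ranked by density, that is by deep narrow intervals per Mb of interior, which the choice of these intervals already used. Of 21887 protein-coding genes, 9886 had any interior and 4557 held a member, of which 1760 held exactly 1 and 32 held 30 or more. Among the 3498 genes with at least 50 kb of interior, 2865 (81.9%) held at least 1, and 470 (13.4%) reached 45.84 per Mb, which is 2 times the density over all interiors. The median gene had 19.9 per Mb (quartiles 8.71 and 35.8).

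The 15 hosts of highest density were of moderate length, with 6 to 11 members each. Phf3, whose protein binds elongating RNA polymerase, led with 9 in 51.6 kb of interior (174 per Mb, 95% Poisson interval 79.8 to 331) and no wider deep interval. Its members ran from chr1:30815827-30816027 to chr1:30861968-30862168, with 956 bp to 14.1 kb between neighbours. Dixdc1, of the Wnt pathway, had 8 (141 per Mb), and Tgfbr2, a TGF-β receptor gene, had 9 (133 per Mb). In Tgfbr2 a pair of intervals at chr9:116111585-116111785 and chr9:116111830-116112030 lay 245 bp apart between centres.

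Enpp1, a pyrophosphatase gene known for its effect on insulin signalling, had 7 members and no wider deep interval (129 per Mb), as had the sarcomere gene Myom2 (7, 126 per Mb). Prdm2, a histone methyltransferase gene, had 11 (129 per Mb), Rassf8 7 (128) and Wipf1, an actin regulator gene, 10 (125). Ergic1 had 9 (118 per Mb), Susd6 8 (114), Mfhas1 8 (112) and Wdfy1 6 (112). The phosphoinositide phosphatase gene Mtmr7 had 7 (110 per Mb), Gramd1c, of a sterol transport family, 7 (107.6) and Pank1, the coenzyme A synthesis kinase gene, 6 (106). Their intervals overlap each other widely, so the order among these 15 is not resolved.

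**Figure D3:**
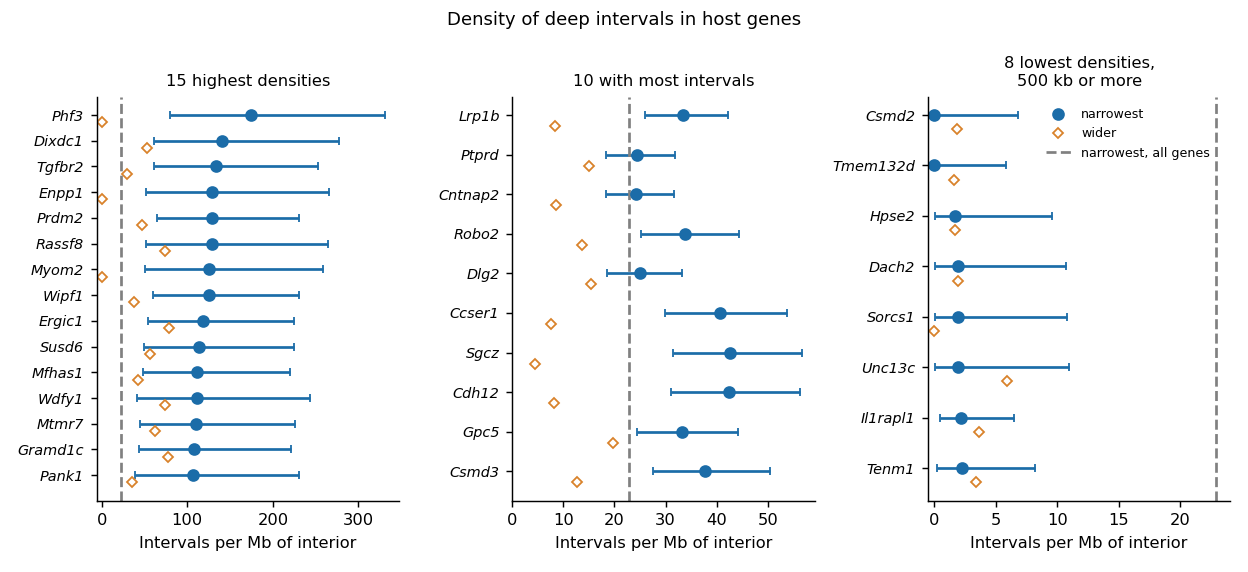
Deep narrow intervals per Mb of gene interior (filled points, x axis, with 95% Poisson intervals) in the 15 densest host genes, the 10 with the most intervals and the 8 least dense with at least 500 kb of interior, and wider intervals per Mb (open diamonds, set slightly below). The dashed line is the 22.9 per Mb of all interiors, and the wider densities in the middle group are 4.45 to 19.8.

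The ranking favoured hosts near the length limit. All 15 had at most 85.4 kb of interior, and none stayed among the leading 15 when at least 100 kb was required. That setting was led by Ppfibp1, a gene of the liprin scaffold family (10 members, 97.8 per Mb), Dapk1, a death-associated kinase gene (13, 91.9), Ston2 (12, 89.9), the splicing factor gene Mbnl2 (12, 88.2) and Kynu, an enzyme gene of tryptophan breakdown (9, 83.5). Gbe1, the glycogen branching enzyme gene, followed with 18 in 236 kb (76.3 per Mb, 45.2 to 121). Across the 3498 genes, 247 had a Poisson interval wholly above the 22.9 per Mb of all interiors and 174 one wholly below it, with no allowance for the number of genes. Across the same genes the narrow and wider densities had a Spearman correlation of 0.485, as a description only, since both come from 1 list and share the interior length.

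Hosts with the most intervals were very long. Lrp1b, a receptor of the LDL receptor family, held 68 in 2038 kb of interior (33.4 per Mb, 25.9 to 42.3) beside 17 wider ones. The receptor phosphatase gene Ptprd held 55 beside 34, Cntnap2 54 beside 19, the axon guidance gene Robo2 52 beside 21 and the synaptic scaffold gene Dlg2 49 beside 30. Ccser1 held 48 beside 9, the sarcoglycan gene Sgcz 48 beside 5, the cadherin gene Cdh12 47 beside 9, the glypican gene Gpc5 47 beside 28 and Csmd3 45 beside 15.

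Within such genes the intervals were scattered and not bunched in a single place. In Sgcz neighbouring members lay 1.34 to 179 kb apart (median 14.7 kb), in Lrp1b 0.235 to 191 kb (median 18.7 kb) and in Cdh12 0.266 to 103 kb (median 16.9 kb). Members of Sgcz reached over 1082 kb of the gene and those of Lrp1b over 2022 kb.

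Not every very long gene carried many. With at least 500 kb of interior, the lowest densities were in Csmd2 and Tmem132d, which held none in 539 and 630 kb. Hpse2, Dach2, Sorcs1 and Unc13c held 1 each (1.72 to 1.97 per Mb), the X-linked gene Tenm1 2 (2.27) and the X-linked synaptic gene Il1rapl1 3 in 1355 kb (2.21 per Mb, 0.457 to 6.47). Wider intervals were as scarce there, at 0 to 5 a gene. Of these 8 genes, 3 are on X and 2 on chromosome 19, the chromosomes of lowest density apart from Y.

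The mix of narrow and wider intervals ranged widely between hosts. Among 381 genes with at least 20 deep intervals, the narrowest made up a median of 46.3%. The highest shares, chosen after the values were seen, were in Edil3, a matrix protein gene (21 of 22, 95.5%, exact 95% interval 77.2 to 99.9), Dcc, the netrin receptor gene (25 of 27), Iqcm and Stpg2 (23 of 25 each), Brinp3 (21 of 23), Sgcz (48 of 53), the potassium channel gene Kcnd2 (19 of 21), the muscle gene Trdn (18 of 20), Zfp804b (18 of 20) and Fstl5 (21 of 24). The lowest were in Ankrd44 (4 of 29, 13.8%, 3.89 to 31.7), the transcription factor gene Mitf (3 of 20), the Notch coactivator gene Maml3 (6 of 35), Tns3 (4 of 21), Zfp407 (6 of 29), the RNA-binding protein gene Rbm47 (5 of 23), the succinyl-CoA ligase gene Suclg2 (5 of 22), the nuclear factor gene Nfib (7 of 30), Phldb2 (5 of 21) and Baz2b (5 of 21).

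Gene lists were compared by counts, for members of each list with at least 50 kb of interior. Of 39 neuronal synapse and adhesion genes, 38 held a deep narrow interval, against 81.9% of all such genes. Most are very long, and of all 208 genes with at least 500 kb of interior only 2 held none. Their median density of 20.8 per Mb stood beside 19.9 for all genes. Their wider density was lower, with a median of 9.80 against 22.5 per Mb, and against 13.9 for all genes with at least 500 kb of interior. The narrowest made up 67.8% of their deep intervals (1001 beside 475 wider, exact 95% interval 65.4 to 70.2), against 47.2% (46.7 to 47.8) over all 3498 genes. They were the majority in 29 of the 39, against 1142 of 3498 (32.6%). Among genes with at least 500 kb of interior they were the majority in 28 of 37 neuronal genes (75.7%) and in 93 of the 171 others (54.4%). In that length class the share was 68.2% (65.7 to 70.6) in the neuronal genes and 52.8% (51.4 to 54.2) in the others. Pooled in that class, the neuronal genes had 22.1 narrow and 10.3 wider intervals per Mb, and the others 20.7 and 18.5. Gria1, a glutamate receptor gene, was the exception without a member, in 299 kb. The neuronal list also holds the sarcoglycan gene Sgcz, with 48 narrow beside 5 wider intervals.

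**Figure D4:**
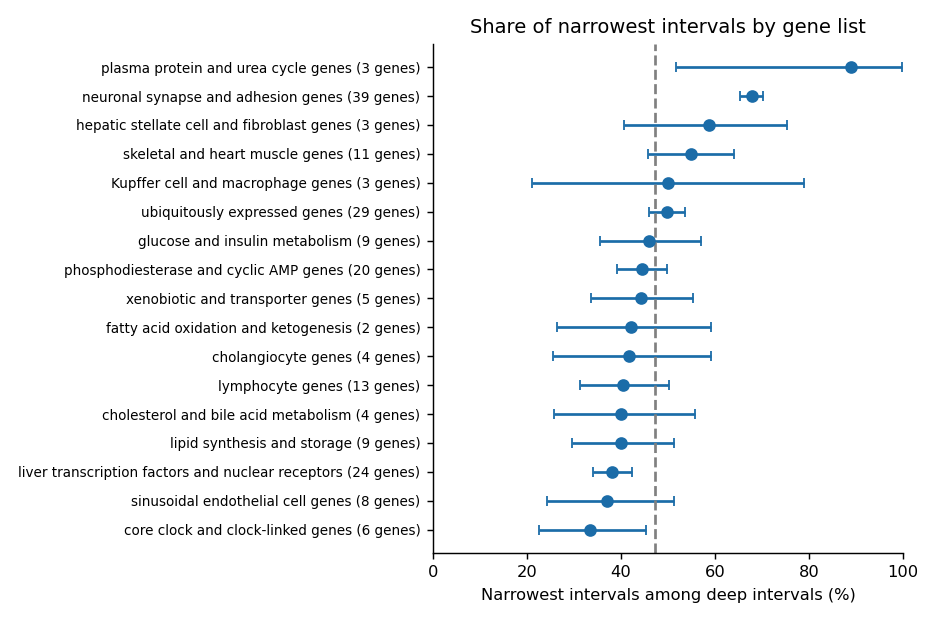
Share of narrowest intervals among deep intervals in percent (x axis) for each gene list (y axis, genes with at least 50 kb of interior in brackets), with exact 95% intervals as bars. Neuronal genes stand at 67.8% and liver transcription factors at 38.1%, on either side of the dashed line at 47.2% for all genes.

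Liver transcription factor and nuclear receptor genes had many intervals of both widths. All 24 with enough interior held a deep narrow interval, against 81.9% of all genes, and 4 (16.7%) reached 45.84 per Mb, against 13.4% of all genes. Among 29 genes listed as ubiquitously expressed, 28 (96.6%) held one and 8 (27.6%) reached 45.84 per Mb. Over all genes, 26.9% held none at 50 to 100 kb of interior. At 100 to 200 kb 14.5% held none, at 200 to 500 kb 6.98%, and at 500 kb or more 0.962%. The 24 liver factor genes had a median of 33.3 narrow intervals per Mb and 60.2 wider ones. Of their deep intervals the narrowest made up 38.1% (34.0 to 42.4), against 47.2% over all 3498 genes. The narrowest were the majority in 3 of the 24 (12.5%), against 1142 of 3498 (32.6%). Tcf7l2, a Wnt effector, had the highest density, with 12 beside 6 wider ones (69.8 per Mb, 36.1 to 122). Its members lay from 61.5 to 175 kb from the 5′ end, none in the interior before that. Zbtb20, a repressor in hepatocytes, held the most, with 31 beside 48 (42.4 per Mb).

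Other receptors of this group ranged widely. The thyroid hormone receptor gene Thrb held 20 beside 24 wider ones (55.8 per Mb), Esrrg 20 beside 23 (34.1 per Mb, 20.8 to 52.7) and Nr5a2 5 beside 12 (51.1 per Mb). Ppara, which drives fatty acid oxidation, held 3 beside 3, at 11.98, 20.3 and 42.1 kb from its 5′ end. The glucocorticoid receptor gene Nr3c1 held 1 beside 11. Hnf4a, with 46.1 kb of interior and therefore not ranked, held 2 beside 5, at 10.9 and 25.3 kb from its 5′ end.

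Lists of metabolic genes were small. For lipid and glucose genes the 95% interval of the median included the 19.9 per Mb of all genes. The cholesterol, fatty acid oxidation and xenobiotic lists, with 4, 2 and 5 ranked genes, were too small for such an interval. There the range from the lowest to the highest gene included 19.9. The 9 ranked lipid synthesis and storage genes all held a member, against 81.9% of all genes, with a median of 42.3 per Mb (18.7 to 61.4). Of these, 4 (44.4%) reached 45.84 per Mb, against 13.4% of all genes, and with at least 100 kb of interior the median was 18.7 per Mb. Elovl6, which elongates fatty acids, had 7 beside 7 wider ones (81.3 per Mb, 32.7 to 168), including the pairs chr3:129573601-129573801 with chr3:129573871-129574071 and chr3:129591712-129591912 with chr3:129592031-129592231. Lpin1 had 6 (61.4 per Mb), the fatty acid transporter gene Cd36 5 (57.3), Acsl4 3 (56.8) and Me1 4 (42.3), while Acaca, the cytosolic acetyl-CoA carboxylase gene, had 4 in 214 kb (18.7). Narrowest intervals made up 40.0% in this list (29.5 to 51.2).

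In glucose and insulin metabolism 8 of 9 ranked genes held a member (88.9%, against 81.9% of all genes), with a median of 44.5 per Mb (8.88 to 58.4). Here too 4 (44.4%) reached 45.84 per Mb, against 13.4% of all genes. Igf1, the growth factor gene made in liver, had 6 in 58.8 kb (102 per Mb, 37.5 to 222), all between 27.3 and 50.7 kb from its 5′ end. The kinase gene Gsk3b had 8 (58.4 per Mb), the insulin receptor gene Insr 6 (55.2), Pcx, the pyruvate carboxylase gene, 4 (49.2) and the growth hormone receptor gene Ghr 9 in 246 kb (36.6). Grb10, which encodes an inhibitor of insulin signalling, held none beside 7 wider ones, and its relative Grb14 held 4 beside 8.

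Cholesterol and bile acid genes had 4 ranked members with a median of 34.5 per Mb. Cyp7b1, an oxysterol hydroxylase gene, had 9 beside 7 (59.2 per Mb, 27.1 to 112), from chr3:18111083-18111283 to chr3:18215502-18215702 and 5.73 to 26.8 kb apart. Abca1, the cholesterol efflux pump gene, had 6 beside 10 (54.9 per Mb), and the bile salt export pump gene Abcb11 1 beside 2. The 2 ranked genes of fatty acid oxidation were the coactivator genes Ppargc1b, with 4 (44.8 per Mb), and Ppargc1a, with 12 in 642 kb (18.7, 9.66 to 32.7). Among 5 xenobiotic and transporter genes, Slc22a23 had 6 beside 17 (41.1 per Mb) and Dpyd, which breaks down pyrimidines, 25 beside 11 (29.4), while Aox3 held none.

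Plasma protein and urea cycle genes are mostly short, and 3 could be ranked. Cps1, the entry enzyme gene of the urea cycle, held 4 and no wider deep interval (45.0 per Mb, 12.3 to 115), at chr1:67177012-67177212, chr1:67181261-67181461, chr1:67194478-67194678 and chr1:67217452-67217652. The list had 8 narrow of 9 deep intervals (88.9%, 51.8 to 99.7), a share that rests on 3 genes.

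Among clock genes, narrow intervals were fewer than wider ones or equal in number in each. Of 6 ranked genes 4 held a member (66.7%, against 81.9% of all genes), the median being 17.9 per Mb. None reached 45.84 per Mb, against 13.4% of all genes, and 6 genes are few for either share. Clock held 3 beside 3 wider ones (39.6 per Mb), Arntl 3 beside 7 (25.9), the nuclear receptor gene Rora 16 beside 31 (22.4 per Mb, 12.8 to 36.3) and Npas2 2 beside 7 (13.4). Rorb, a relative of Rora known from brain and retina, held no deep interval of either width in 161 kb, nor did Btrc in 150 kb, both on chromosome 19. The narrowest made up 33.3% (22.7 to 45.4) of deep intervals in this list, the lowest share of the 17 lists.

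**Figure D5:**
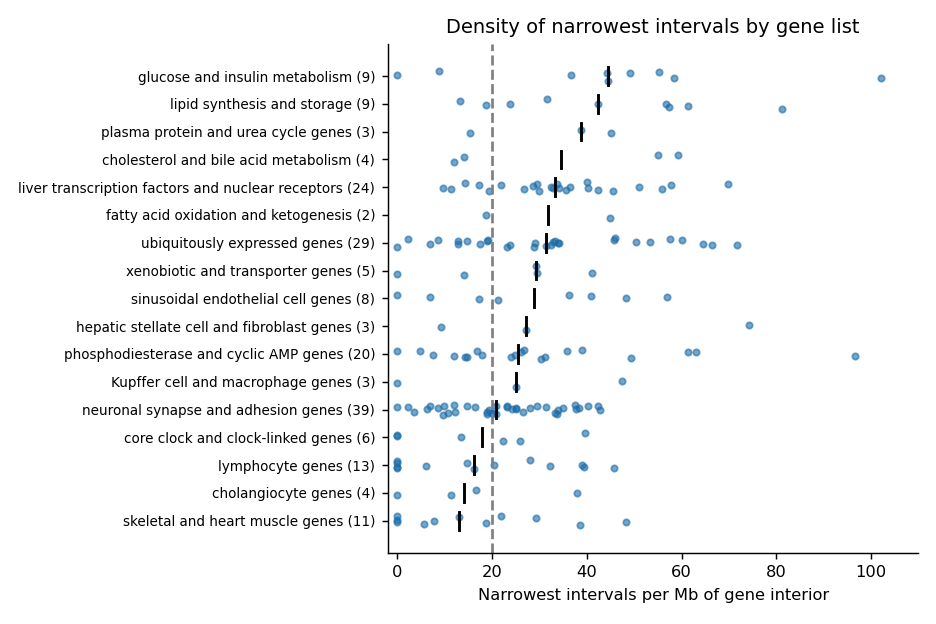
Deep narrow intervals per Mb of gene interior (x axis) for each ranked gene (points, spread vertically for sight) of each list (y axis, ranked genes in brackets), with the list median as a black bar. Medians run from 13.0 for muscle genes to 44.5 for glucose and insulin genes, and the dashed line is the 19.9 of all genes.

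Markers of other liver cells gave small lists. Among 8 ranked sinusoidal endothelial genes 7 held a member (87.5%, against 81.9% of all genes; median 28.8 per Mb, and 11.97 when 20 kb from ends was required), led by the transcription factor gene Gata4 with 3 (56.8 per Mb, 11.7 to 166), and by the scavenger receptor gene Stab2 in number with 6 beside 9. Erg, an endothelial transcription factor gene, held none beside 9 wider ones in 207 kb. Of 3 stellate cell genes, the basement membrane collagen gene Col4a1 held 7 (74.2 per Mb, 29.8 to 153) Reln 12 in 440 kb (27.3) and Col5a2 1 beside 2 wider ones (9.18). Of 3 macrophage genes, Mertk, which clears dying cells, held 4 (47.5 per Mb), while Adgre1 held no deep interval in 105 kb. The liver samples hold all these cells, and which cells an interval came from cannot be told from positions.

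Lymphocyte genes had a median of 16.2 per Mb, and 9 of 13 held a member (69.2%, against 81.9% of all genes). Bach2, a B cell factor gene, had 15 beside 25 (45.77 per Mb, 25.6 to 75.5), just under 45.84, whereas the T cell adaptor gene Skap1 held none in 275 kb. Cholangiocyte genes had 14.0 per Mb, with 5 and no wider interval in the chloride channel gene Cftr (37.9 per Mb), 9 in Pkhd1 and none in Bicc1. Muscle genes had the lowest median, 13.0 per Mb, and 8 of 11 held a member (72.7%, against 81.9% of all genes). Trdn led them with 18 beside 2 (48.2 per Mb, 28.6 to 76.2), and Dmd held 13 in 2297 kb (5.66 per Mb).

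Among phosphodiesterase and cyclic AMP genes 19 of 20 held a member (95%, against 81.9% of all genes), with a median of 25.5 per Mb. Pde4d held 40 beside 59 in 1282 kb (31.2 per Mb), Pde5a none, and the transcription factor gene Creb1 had the highest density with 5 in 51.8 kb (96.6 per Mb, 31.4 to 225). The 29 ubiquitously expressed genes had a median of 31.3 per Mb with a narrow share of 49.7%. Macrod2 and Naaladl2 held the most, with 45 each beside 27 and 43, Cul3, a ubiquitin ligase scaffold gene, was densest with 4 (71.7 per Mb), and Ubr3 held none.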

How the data were processed

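ATAC-seq libraries of liver from C57BL/6J and 129S1/SvImJ mice (3 each) were combined by the authors into 1 deposited list of interval positions, with 3 columns and no header, score or count. Per the submitters' processing notes, fastp, Bowtie2, HOMER and mm10 were used, without versions or order. As for the peak threshold, read shift, duplicate filters and the way libraries were combined, each is not given in the sources used here. They set which weak sites entered the list and the 201 bp width.

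Genes came from RefSeq (GRCm38.p6), as gene spans without exons, with 49943 genes on 21 chromosomes. All 460 list entries were found by symbol or synonym. Starts were made 1-based. Intervals inside overlapping hosts counted for each. Poisson and exact Clopper-Pearson 95% intervals used scipy 1.17.1 in Python 3.11.15. RefSeq start windows were not used for chromosome 18, where none was given. For 779 of the 3498 genes with at least 50 kb of interior, chromosome 18 included, no strand was taken from these windows. Among them was Phf3 on chromosome 1, so touched starts may be undercounted on other chromosomes too. Geometry and ranking were tested on simulated data.

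The intervals and gene lists were chosen with earlier results of these data known. Named genes were the 15 highest and, with at least 500 kb of interior, 8 lowest densities, the 10 with most intervals, for each list the densest gene, the one with most intervals and the longest without, and Esrrg, Hnf4a, Rora, Ppara, Ppargc1a and Nr5a2. Some results under this rule are not reported here. Other genes were named after their values were seen.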

Additional observations from a re-analysis of the deposited data

How the results depend on the processing

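No paired analysis was possible because the deposited list holds no values per library. For the same reason no replicate could be left out and no stricter peak threshold applied, and the strain comparison was not run. Of 239 values recomputed under other settings, 218 stayed within their 95% interval or, for counts, within 1.5 times. The intervals of list medians are wide. For lists of 2 to 5 ranked genes the range from the lowest to the highest gene stood in for a 95% interval. Of 186 list medians, 23 changed over 1.5 times. Among them were macrophage genes, from 25.2 to 0 per Mb with at least 20 kb of interior, and stellate genes, from 27.3 to 46.9 at 5 kb from ends. The values outside their limits follow, and the causes were not tested. The density of 22.9 per Mb became 23.6 on autosomes only, 20.6 with intervals within 500 bp joined and 25.0 with widths up to 2 bp above the minimum. Those widths gave a density ratio by distance of 0.865, a narrowest share of 50.4% and a share of hosts with a member of 83.4%. The narrowest share of 46.2% became 45.4% at 5 kb from ends, 47.5% at 20 kb and 43.2% after joining. The share of hosts with a member, 81.9%, became 80.4% with ends of all genes, 67.0% with at least 20 kb of interior and 89.7% with at least 100 kb. The median spacing of 5647 bp became 5527 at 5 kb from ends, 5928 at 20 kb, 5803 with ends of all genes and 6497 after joining. Of the 15 densest hosts, 5 stayed at 20 kb from ends, 1 with at least 20 kb of interior and 0 with at least 100 kb. Among list medians, fatty acid oxidation became 18.4 per Mb at 5 kb from ends and plasma proteins 0 with at least 20 kb of interior, and over whole gene spans the median of all genes was 17.4 against 19.9. The distance ratio was not recomputed at 5 and 20 kb, which do not enter it.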
